A study of Mus musculus with 5 samples.

Results

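Hox genes were described in single cells of lumbar dorsal root ganglia (DRG), the sensory ganglia beside the spinal cord. The members were the rows of the count table named Hox, a cluster letter from a to d and a number, and 32 of the 17271 rows met this rule. The ganglia came from 5 untreated wild-type C57BL/6 mice, 3 males and 2 females, at 18 weeks of age, and all samples belonged to 1 condition. The 3352 cells fell into 14 types in the authors' annotation, of which 12 were neuron types with 3047 cells, and the others were satellite glia with 249 cells and endothelial cells with 56. The cells carried 5 library identifiers, called libraries 1 to 5 here. Each was taken as 1 mouse, no library could be tied to a sample label or a sex, and animal and processing batch cannot be told apart.

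Hox genes encode homeodomain transcription factors that give cells their position along the body axis. In mammals they lie in 4 clusters, HoxA to HoxD, and their order along the chromosome follows the order in which they are used from head to tail. Low numbers mark the hindbrain and neck, and high numbers mark the lumbar and sacral levels. They act in embryonic patterning and neuron subtype choice, and many stay active in adult cells. The rows held 9 HoxA genes on chromosome 6, 9 HoxB genes within chr11:96271457-96368256, 7 HoxC genes within chr15:102954427-103036852 and 7 HoxD genes within chr2:74679557-74765142 (mm10, GENCODE M21). All 32 are protein coding in that annotation.

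The libraries held 164 to 1370 cells and 13050375 to 88886919 unique molecular identifiers (UMIs), with 224553219 UMIs in all. Median UMIs per cell were 62779 in neurons, 17729 in satellite glia and 16889 in endothelial cells. Libraries shared 7 barcodes. Counts were summed per type and library, which gave 70 sums, of which 9 came from fewer than 10 cells and the smallest from 3. All 16 genes in the names of the neuron types had their highest level in the type they name. The neuron marker list (Rbfox3, Tubb3, Snap25, Prph, Uchl1, Stmn2) stood at 15066 CPM (UMIs of a gene divided by all UMIs of the sum, in the usual counts-per-total scaling) in neurons and the glial list (Fabp7, Apoe, Kcnj10, Glul, Sox10) at 87267 CPM in satellite glia. The endothelial list (Pecam1, Cdh5, Cldn5, Flt1, Kdr, Tek) stood at 6374 CPM in endothelial cells. Levels below are CPM, which for this 3′ assay do not scale with transcript length, and a mean ± SD is over the 5 libraries unless stated.

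Hox transcripts were rare but present in nearly every neuron. The 32 genes held 86560 UMIs, 0.0385% of all. A total of 4 of 3047 neurons and 16 of 249 satellite glia had no Hox UMI, and every one of the 56 endothelial cells had at least 1. Hoxa7 had the highest mean of all Hox genes in 10 of the 14 types, and the exceptions were NF_Calb1 (Hoxb8), NF_Pvalb (Hoxb9), PEP2_Htr3a.Sema5a (Hoxa9) and the endothelium (Hoxb9). In NF_Calb1 and PEP2_Htr3a.Sema5a the leading gene led in only 1 of 5 libraries. Hoxa7 led in 3 of 5 libraries in NP_Mrgpra3 and Th, in 4 in PEP1_S100a11.Tagln2 and in all 5 in the other types it led. The 10 genes with the highest mean level over the neuron types held 76.9% of the Hox UMIs. A further 13 genes also passed the filter on low counts, so 23 members were tested, at mean levels of 2.51 to 69.5 CPM. The other 9 did not pass it, with 10 to 370 UMIs and 0.0354 to 1.82 CPM. Of these, Hoxa3, Hoxc5 and Hoxd3 share bases on the same strand with other members in the annotation, so the assignment of their reads, and of those of the members they overlap, is uncertain.

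**Figure D1:**
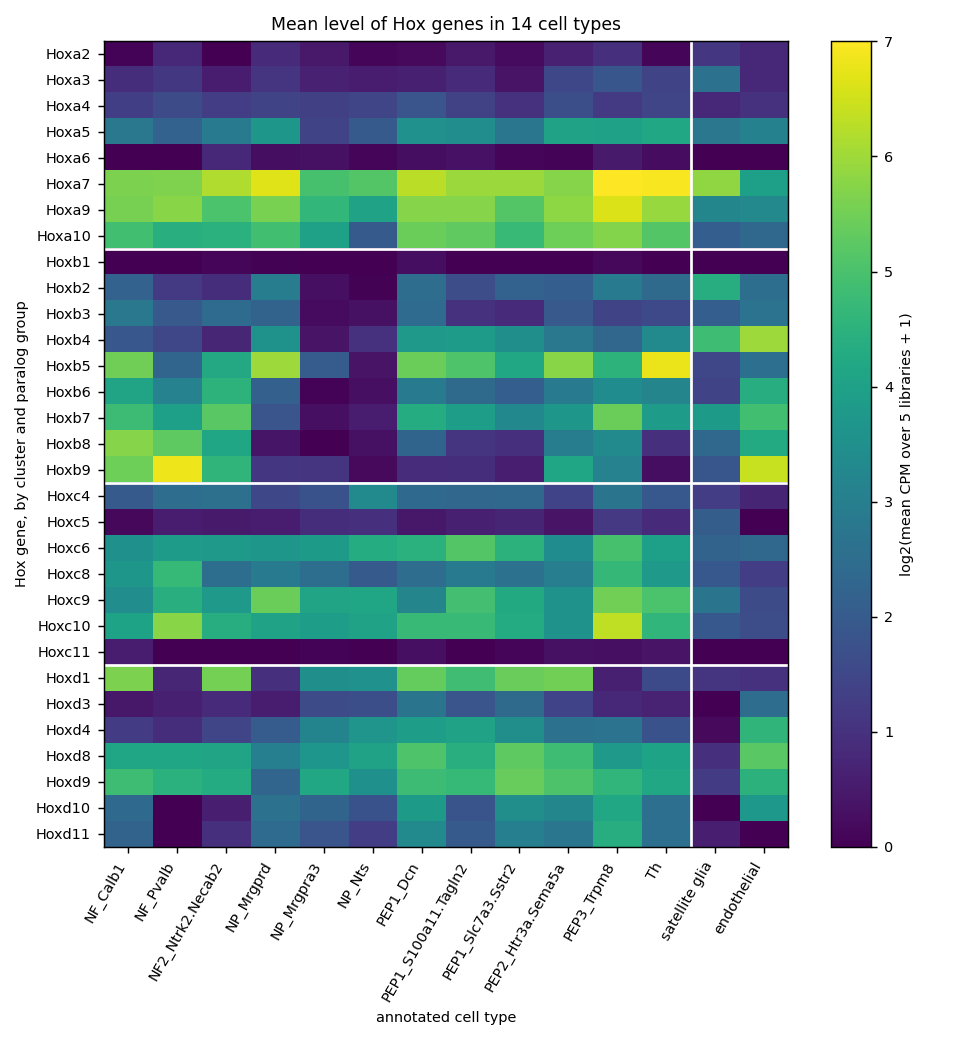
Mean CPM over 5 libraries, on a log2(CPM + 1) colour scale, of Hox genes (rows, by cluster and number) in the 14 annotated types (columns). Hoxa7 is bright in all neuron types and in satellite glia, and the HoxB rows are dark in NP_Mrgpra3 and NP_Nts.

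In the HoxA cluster the levels rested on Hoxa7, Hoxa9 and Hoxa10. Averaged over the neuron types, Hoxa7 stood at 69.4, 65.4, 72.1, 70.3 and 70.5 CPM in libraries 1 to 5. Hoxa9, known for its part in blood stem cells and leukaemia, stood at 50.7, 44.7, 46.0, 43.8 and 51.9 CPM. Hoxa10, a patterning gene of the lumbar vertebrae and the uterus, stood at 32, 28.5, 25.5, 28.4 and 32 CPM. The ranges of these genes over libraries did not overlap one another, so their order was the same in every library. In HoxB, Hoxb5 was the most abundant member with 31.1, 37.0, 30.3, 35.1 and 36.4 CPM. This gene is known from the neural crest and from vessel development.

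In HoxC, Hoxc10 stood at 32.5, 23.8, 22.4, 27.6 and 26.7 CPM, Hoxc9 at 22.1, 25.7, 21.4, 18.5 and 20.8 CPM, and Hoxc6 at 18.9, 19.2, 17.4, 16.5 and 16.3 CPM. All 3 are known from the columns of spinal motor neurons, Hoxc6 at forelimb, Hoxc9 at thoracic and Hoxc10 at lumbar levels. Their ranges overlapped between neighbours in this order. In HoxD, Hoxd1 stood at 17.6, 21.3, 25.7, 22.6 and 26.4 CPM, Hoxd9 at 18.1, 26.4, 17.3, 25.3 and 23.2 CPM, and Hoxd8 at 16.3, 22.7, 15.3, 20.6 and 20.7 CPM. Hoxd1 is known for its part in the wiring of nociceptors in the mouse, and Hoxd9 with its neighbours for limb and lumbar patterning. The levels of Hoxc10, Hoxd1, Hoxd9, Hoxc9, Hoxd8 and Hoxc6 lay close together, and neighbours in this order overlapped over libraries. The 22 members below this set had means of 0.0354 to 17.3 CPM.

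The promoters of HoxD members are shown because Hoxd10 and Hoxd11, which lie side by side, were found in the same neurons and were low in the same library, while Hoxd1 at the other end of the cluster had another pattern. Each run holds 250 bases before and 50 after a transcript start (RefSeq, GRCm38.p6, the build called mm10), on the plus strand of chromosome 2, and windows of 18 of the 32 members matched. Capitals mark TGATNNAT, the core read by PBX with HOX proteins, searched on both strands. The Hoxd11 match is on the minus strand. A second Hoxd11 window, chr2:74679308-74679607, holds no match and is not printed. Windows of Hoxd3 and Hoxd4 hold no match to TGATNNAT either and are also not printed.
Hoxd11, chr2:74682073-74682372: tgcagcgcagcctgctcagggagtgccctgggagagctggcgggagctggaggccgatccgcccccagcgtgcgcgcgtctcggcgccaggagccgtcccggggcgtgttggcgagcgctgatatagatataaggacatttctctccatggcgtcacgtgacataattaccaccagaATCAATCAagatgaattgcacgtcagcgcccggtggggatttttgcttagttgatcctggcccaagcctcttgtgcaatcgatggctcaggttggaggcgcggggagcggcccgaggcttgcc
Hoxd10, chr2:74691641-74691940: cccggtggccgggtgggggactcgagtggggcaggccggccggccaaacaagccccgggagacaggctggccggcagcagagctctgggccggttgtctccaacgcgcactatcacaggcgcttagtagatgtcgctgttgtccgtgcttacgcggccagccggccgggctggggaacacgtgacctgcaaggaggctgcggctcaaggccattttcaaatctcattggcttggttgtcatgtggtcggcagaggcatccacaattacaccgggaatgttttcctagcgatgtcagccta
Hoxd9, chr2:74697513-74697812: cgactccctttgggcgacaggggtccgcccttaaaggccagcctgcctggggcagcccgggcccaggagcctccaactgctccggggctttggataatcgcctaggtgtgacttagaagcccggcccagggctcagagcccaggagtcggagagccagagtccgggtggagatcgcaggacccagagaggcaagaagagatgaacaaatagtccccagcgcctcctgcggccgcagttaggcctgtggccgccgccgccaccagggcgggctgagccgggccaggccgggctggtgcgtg
Hoxd8, chr2:74704365-74704664: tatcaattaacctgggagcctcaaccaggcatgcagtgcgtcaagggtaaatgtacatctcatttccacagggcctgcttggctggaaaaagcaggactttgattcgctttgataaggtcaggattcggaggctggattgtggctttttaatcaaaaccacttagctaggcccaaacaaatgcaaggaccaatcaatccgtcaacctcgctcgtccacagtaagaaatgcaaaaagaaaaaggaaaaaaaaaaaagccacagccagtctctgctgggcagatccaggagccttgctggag
Hoxd1, chr2:74762730-74763029: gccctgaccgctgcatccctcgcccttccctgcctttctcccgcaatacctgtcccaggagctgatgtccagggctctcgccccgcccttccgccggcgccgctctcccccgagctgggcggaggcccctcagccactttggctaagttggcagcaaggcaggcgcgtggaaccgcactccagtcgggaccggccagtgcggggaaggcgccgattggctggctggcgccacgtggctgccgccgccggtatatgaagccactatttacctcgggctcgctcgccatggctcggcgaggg

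TGATNNAT was held by 4 of 20 Hox promoter windows and by 8.85% of 32851 promoter windows of the same length. A TATA box written as TATAAA, also searched on both strands, was held by 3 of 20 and by 13.6% of all. The Hox windows had a median GC content of 57.7% and 13.5 CG pairs, against 52.7% and 7 over all windows. These are descriptions of letters and carry no test.

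The first comparison asked whether the level of a Hox gene differs among the 12 neuron types. All 23 tested members differed (edgeR quasi-likelihood test, Benjamini-Hochberg adjusted p under 0.01 over 11886 genes), where 92.4% of all genes did. Against the mean of the other 11 neuron types, 101 of 276 pairs of gene and type were higher and 59 were lower, where 23.5% and 16.7% of pairs over all genes were. The types were clustered from the same counts, so these tests give sizes and are no evidence for the types. The ratio of the highest to the lowest type was smallest for Hoxc6, at 3.52. PEP3_Trpm8, which carries the cold receptor Trpm8, was the highest type for 8 of 23 genes. NP_Mrgpra3 was the lowest for 7 and NP_Nts for 6, both being types with receptors or peptides known from itch. How often each type is the highest or lowest over all genes was not counted.

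The sum over all 32 genes ranged from 179 ± 15.4 CPM in NP_Nts and 186 ± 28.2 in NP_Mrgpra3 to 669 ± 75.5 in PEP3_Trpm8, and the other 9 neuron types lay between 389 and 518 CPM. Of the 23 tested members PEP3_Trpm8 had 14 higher and 1 lower than the other neuron types, where 22% and 16.5% of all genes were. PEP1_Dcn had 13 and 1, where 19.7% and 8.95% of all genes were. NP_Nts had 2 and 13, where 24.3% and 20.1% of all genes were, and NP_Mrgpra3 had 1 and 12, where 19.4% and 16.7% were. Library 1, however, held only 4 cells of NP_Mrgpra3, 4 of PEP1_Dcn and 3 of NF2_Ntrk2.Necab2.

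HoxA genes were highest in PEP3_Trpm8 and Th and lowest in the Mrgpra3 and Nts types. Hoxa7 was at 138, 114, 121, 135 and 128 CPM in PEP3_Trpm8 and at 29.4, 35.5, 39.3, 25.1 and 21.9 CPM in NP_Mrgpra3. The lowest library of the first was over the highest of the second, and the log2 difference from the other neuron types was 1.06 ± 0.09 (SE, adjusted p 7.23e-17) and −1.11 ± 0.11 (adjusted p 1.6e-13). In Th, the type of low-threshold C-fibre mechanoreceptors, Hoxa7 was at 121 ± 10.8 CPM and overlapped PEP3_Trpm8. Hoxa9 was at 117, 79.2, 76.5, 105 and 117 CPM in PEP3_Trpm8 and at 21.9, 13.3, 16.3, 13.3 and 12.1 CPM in NP_Nts (log2 1.29 ± 0.12 and −1.71 ± 0.15, adjusted p 2.18e-15 and 5.52e-17). These ranges did not overlap.

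Hoxa10 was at 51.1, 44.0, 34.7, 59.1 and 68.6 CPM in PEP3_Trpm8 and at 10.2, 0.474, 1.76, 0.967 and 1.33 CPM in NP_Nts (log2 1.28 ± 0.16 and −4.21 ± 0.26, adjusted p 2e-10 and 1.27e-23). Library 1 of NP_Nts, from 10 cells, stood above the other libraries of that type. Hoxa5, known from lung and cervical patterning, was highest in Th at 17.2 ± 3.0 CPM and lowest in NP_Mrgpra3 at 1.73 ± 1.49 CPM.

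Summed HoxB levels were near 0 in NP_Nts and NP_Mrgpra3 and reached their highest value among neuron types in NF_Calb1. The 9 HoxB genes together were at 2.6 ± 1.38 CPM in NP_Nts, from 56 UMIs, and at 5.12 ± 6.35 CPM in NP_Mrgpra3, from 38 UMIs, against 195 ± 27.9 CPM in NF_Calb1 and 182 ± 43.0 CPM in NF_Pvalb. In the other 8 neuron types the sum was 45.1 to 148 CPM. Every HoxB member was under 2 CPM in NP_Nts. In NP_Mrgpra3 8 of 9 were, and Hoxb5 was at 0, 12.6, 1.67, 0 and 1.26 CPM, with 17 of 24 UMIs in library 2.

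The other clusters were well above 0 in both types. HoxA, HoxC and HoxD summed to 58.0, 64.2 and 53.9 CPM in NP_Nts and to 73.7, 51.6 and 55.7 CPM in NP_Mrgpra3. HoxB took 1.5% of the Hox UMIs of NP_Nts and 2.7% of those of NP_Mrgpra3, against 23.5% over all neurons.

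Within HoxB the members had different leading types. Hoxb5 was highest in Th, at 94.4, 117, 104, 119 and 113 CPM, and lowest in NP_Nts, at 0, 0, 0.882, 0.276 and 0.333 CPM (log2 2.93 ± 0.15 and −5.99 ± 0.42, adjusted p 1.85e-28 and 9.08e-21). No library of any other neuron type reached the lowest Th library. Hoxb9, a posterior member known from thoracic patterning, was highest in NF_Pvalb, the type with the marker of proprioceptors, at 153, 121, 94.0, 117 and 74.9 CPM (log2 5.74 ± 0.21, adjusted p 5.9e-37). It was next in NF_Calb1 at 43.1 ± 15.3 CPM, NF2_Ntrk2.Necab2 at 22.9 ± 17.1 CPM and PEP2_Htr3a.Sema5a at 16.8 ± 10.1 CPM. In the 3 PEP1 types, the 3 NP types and Th it was at 0.138 to 1.16 CPM.

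Hoxb8 was highest in NF_Calb1, at 41.5, 55.5, 38.7, 51.1 and 76.4 CPM. No UMI was found in 104 NP_Mrgpra3 cells, where 3 UMIs would be 0.314 CPM over the type, so the pooled level in NF_Calb1 was at least 178-fold higher. Its level in NF_Pvalb was 37.9 ± 8.96 CPM and overlapped that in NF_Calb1, and in NP_Mrgprd it was 0.326 ± 0.0725 CPM. Hoxb5, in contrast, was at 3.85 ± 2.87 CPM in NF_Pvalb. Hoxb7 was highest in PEP3_Trpm8 at 42.0 ± 9.6 CPM, Hoxb6 in NF2_Ntrk2.Necab2 at 22.1 ± 4.55 CPM, Hoxb4 in PEP1_S100a11.Tagln2 at 13.7 ± 4.69 CPM, Hoxb2 in NP_Mrgprd at 6.82 ± 0.943 CPM and Hoxb3 in NF_Calb1 at 5.94 ± 1.58 CPM. Of these, Hoxb2 was lowest in NP_Nts, at 0.0222 CPM, and the others in NP_Mrgpra3, at 0.0503 to 0.299 CPM. Free RNA can give a UMI in cells that do not express a gene. A Hoxb5 UMI was found in 3.21% of glia, 1.75% of NP_Nts cells and 4.81% of NP_Mrgpra3 cells, and in 1.90%, 0.419% and 1.46% once each cell was thinned to 10000 UMIs. The thinned shares of both neuron types were under that of glia. The 24 UMIs in NP_Mrgpra3 lay in 5 cells.

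**Figure D2:**
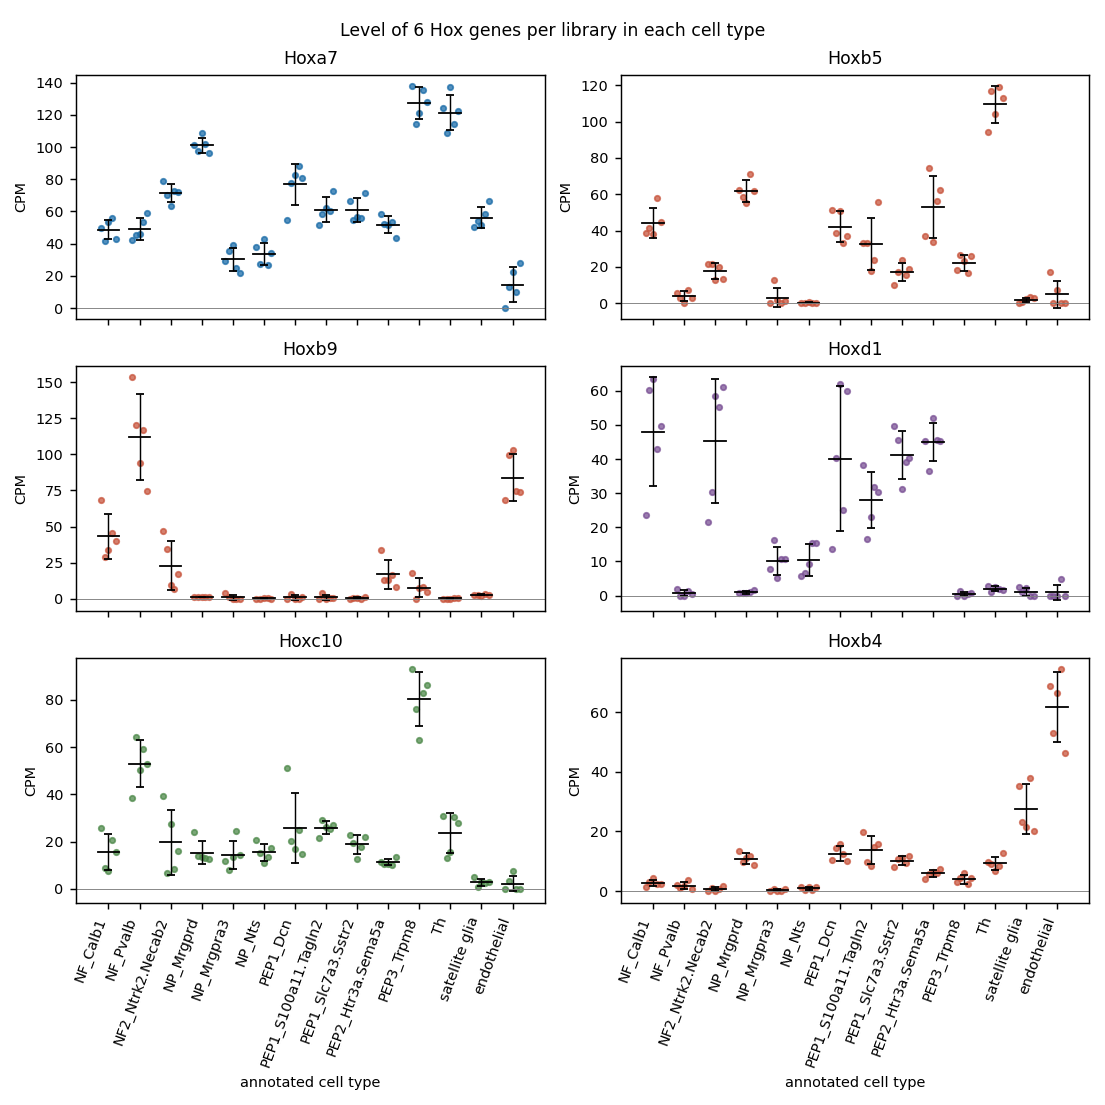
CPM of 6 Hox genes in each annotated type, with 1 point per library and bars for the mean ± SD over 5 libraries. Hoxb5 stands highest in Th, Hoxb9 in NF_Pvalb and the endothelium, Hoxc10 in PEP3_Trpm8, and Hoxd1 in 6 of the 12 neuron types.

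HoxC genes were present in every neuron type, and the lowest mean of the 5 tested in any of them was 1.63 CPM. Hoxc10 was highest in PEP3_Trpm8, at 93.1, 76.3, 63.2, 82.9 and 86.5 CPM, and lowest in PEP2_Htr3a.Sema5a, at 11.3, 10.4, 10.7, 10.1 and 13.3 CPM (log2 2.03 ± 0.17 and −1.06 ± 0.20, adjusted p 1.7e-17 and 6.93e-06). The ranges did not overlap, and NF_Pvalb came next to the top at 53.0 ± 9.82 CPM. Hoxc9 was at 44.5 ± 11.9 CPM in PEP3_Trpm8, overlapping the 42.1 ± 5.78 CPM of NP_Mrgprd, and at 8.09 ± 2.59 CPM in PEP1_Dcn. Hoxc8, known from forelimb motor neuron pools, was at 24.8 ± 9.36 CPM in NF_Pvalb and 24.3 ± 10.2 CPM in PEP3_Trpm8, and at 2.96 ± 1.04 CPM in NP_Nts. Hoxc6 was highest in PEP1_S100a11.Tagln2 at 34.0 ± 8.28 CPM and lowest in PEP2_Htr3a.Sema5a at 9.66 ± 3.74 CPM. Hoxc4 was highest in NP_Nts, at 9.28 ± 1.4 CPM, and lowest in PEP2_Htr3a.Sema5a at 1.63 ± 1.19 CPM. It was the only tested member with its highest level in NP_Nts.

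HoxD genes split by member. Hoxd1 was present in 6 of the neuron types and close to 0 in 4. It was highest in NF_Calb1, at 23.6, 60.2, 63.6, 42.8 and 49.8 CPM (log2 2.52 ± 0.17, adjusted p 1.32e-21), and at 28.0 to 45.3 CPM in NF2_Ntrk2.Necab2, PEP2_Htr3a.Sema5a and the 3 PEP1 types. These 6 types overlapped one another over libraries. In PEP3_Trpm8, NF_Pvalb, NP_Mrgprd and Th it was at 0.527 to 1.99 CPM, and in NP_Mrgpra3 and NP_Nts at 10.1 ± 4.18 and 10.6 ± 4.69 CPM. The highest library of the 4 low types, 2.89 CPM, was under the lowest of NP_Mrgpra3 and NP_Nts, 5.02 CPM, while NP_Mrgpra3 and NP_Nts reached into the range of PEP1_Dcn, whose lowest library was at 13.7 CPM.

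Hoxd8 and Hoxd9 had the same highest type, PEP1_Slc7a3.Sstr2, at 33.9, 51.1, 35, 33.6 and 34.0 CPM and at 35, 47.5, 28.3, 45.9 and 45.0 CPM. Both were lowest in NP_Mrgprd, at 7.12 ± 1.07 and 3.88 ± 1.36 CPM (log2 −1.26 ± 0.15 and −2.36 ± 0.18, adjusted p 3.98e-11 and 1.84e-19). Hoxd4 was highest in PEP1_S100a11.Tagln2, at 15.3 ± 2.81 CPM, and lowest in NF_Pvalb, at 0.891 ± 0.763 CPM. Hoxd10 and Hoxd11 were highest in PEP3_Trpm8, at 9.01, 35.2, 0, 30.4 and 12.4 CPM and at 0, 45.5, 0, 33.7 and 17.9 CPM. No UMI of either was found in 113 NF_Pvalb cells, which allows a share of cells with a UMI of up to 2.65% and does not limit the share that express the gene, and the pooled PEP3_Trpm8 levels were at least 47.7-fold and 56.6-fold higher than 3 UMIs there would give. The libraries of PEP3_Trpm8 were far apart for both genes. The difference of Hoxd10 in PEP3_Trpm8 from the other neuron types was 2.78 ± 0.61 (log2, adjusted p 0.000122), and without library 4 the adjusted p was 0.0114, in a range of 1.37e-06 to 0.0251 over all alternatives.

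The second comparison set satellite glia, the cells that wrap the neuron bodies, against the mean log level of the 12 neuron types. Hoxb2, Hoxb4 and Hoxb7 were higher in glia, both in the mean of log levels and in pooled CPM, and several HoxA, HoxC and HoxD genes were lower. In CPM averaged over the neuron types, Hoxb7 was not higher in glia. Of the 23 tested members 4 were higher, where 33.4% of all genes were, and 10 were lower, where 33.2% of all genes were. The median log2 difference was −1.45 over the members, also with Hoxd10 at its bound, and −0.11 over all genes tested. In glia the neuron markers stood at 2.38 to 6.91% of their level in neurons. Of the tested members 17 were above the highest of these shares and 6 were not, namely Hoxb5, Hoxd1, Hoxd4, Hoxd8, Hoxd10 and Hoxd11. Whether the glial UMIs of these 6 were free RNA of neurons was not tested. The Schwann cell list (Mbp, Pmp22, Prx, Mag, Egr2) stood at 1162 CPM in glia, with a range of 985 to 1322 over libraries, and at 546 CPM in neurons. Pmp22 held most of the neuron value, at 521 CPM in neurons and 513 CPM in glia. The others were higher in glia, Mbp at 576 against 23.6 CPM and Egr2 at 60.2 against 1.98 CPM. Prx was at 9.62 against 0.160 CPM and Mag at 3.72 against 0.0502 CPM. The part of the Schwann cell list in the results was not tested. The fibroblast list was at 244 CPM in glia and 8.69 CPM in neurons. The macrophage list was at 24.7 CPM in glia, nearly all of it Cd68 at 23.8 CPM, against 0.470 CPM in neurons. Lyz2 and C1qa were each at 0.437 CPM, and Aif1, Csf1r and Cx3cr1 at 0. The part of this list in the results was not tested.

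Hoxb4, known for expanding blood stem cells, was at 35.3, 23.1, 21.5, 38.0 and 20.2 CPM in glia. Each of these libraries was above all libraries of every neuron type, and the log2 difference was 3.15 ± 0.19 (adjusted p 2.55e-24). Hoxb2, a hindbrain gene and the most anterior of the genes that rose, was at 25.2, 10.7, 11.8, 20.6 and 28.9 CPM (log2 3.47 ± 0.28, adjusted p 2.96e-18), where the neuron types had means of 0.0222 to 6.82 CPM and the highest single library, of PEP3_Trpm8, was at 15.02 CPM. Hoxb7 was at 13.2 ± 3.33 CPM (log2 1.14 ± 0.25, adjusted p 5.03e-05) and Hoxb8 at 4.03 ± 2.27 CPM (log2 1.24 ± 0.43, adjusted p 0.00764). Hoxb8 was higher in the mean of log levels only: its level averaged over neuron types was 10.8 CPM, and its pooled glial level was 68.5% of that in neurons, against 161% for Hoxb7. Averaged over neuron types, Hoxb7 was at 15.9 CPM, also above its level in glia. In 7 neuron types the mean CPM of Hoxb7 was above that of glia, and in 5 that of Hoxb8 was. The call of Hoxb8 was lost without library 3 (adjusted p 0.0244) and without library 4 (0.147), in a range of 0.00314 to 0.147 over the alternatives. Hoxb3 missed the threshold with all libraries (log2 1.18 ± 0.41, adjusted p 0.0111) and passed it without library 2 (0.000716) and with library as a replicate block (0.00787), in a range of 0.000716 to 0.159 over the alternatives.

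The genes that fell were Hoxa9, Hoxa10, Hoxb5, Hoxc6, Hoxc9, Hoxc10, Hoxd1, Hoxd4, Hoxd8 and Hoxd9. Hoxd8 was at 2.52, 0, 1.39, 0.792 and 0 CPM in glia and fell by 3.97 on the log2 scale (SE 0.48, adjusted p 2.11e-11). Its pooled glial level was 5.72% of that in neurons, within the range of the neuron markers. Hoxc10 was at 5.04, 0.89, 2.77, 2.38 and 2.89 CPM and fell by 2.81 (SE 0.43, adjusted p 2.81e-08). Hoxa9 was at 5.04, 6.23, 10.4, 11.1 and 8.66 CPM and fell by 1.93 (SE 0.22, adjusted p 1.59e-12). For Hoxd8 and Hoxa9 no glial library reached the lowest library of any neuron type. The whole HoxD cluster was at 4.03 ± 2.44 CPM in glia and took 2.2% of the glial Hox UMIs, against 45.8% for HoxA, 41.0% for HoxB and 11% for HoxC. Hoxd10 had 0 UMIs in 249 glia, which allows a share of cells with a UMI of up to 1.20%, and its level was at least 9.17-fold lower than the neuron mean.

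Hoxa7 was kept in glia. It was at 50.4, 54.3, 51.3, 58.6 and 66.4 CPM, within the range of the neuron types, with a log2 difference of 0.12 ± 0.11 (adjusted p 0.342) that was −0.23 against 1 sum of all neurons and −0.18 with totals alone for scaling. Hoxa7 UMIs were found in 59.4% of glia, and the pooled level was 71.3% of that in neurons.

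**Figure D3:**
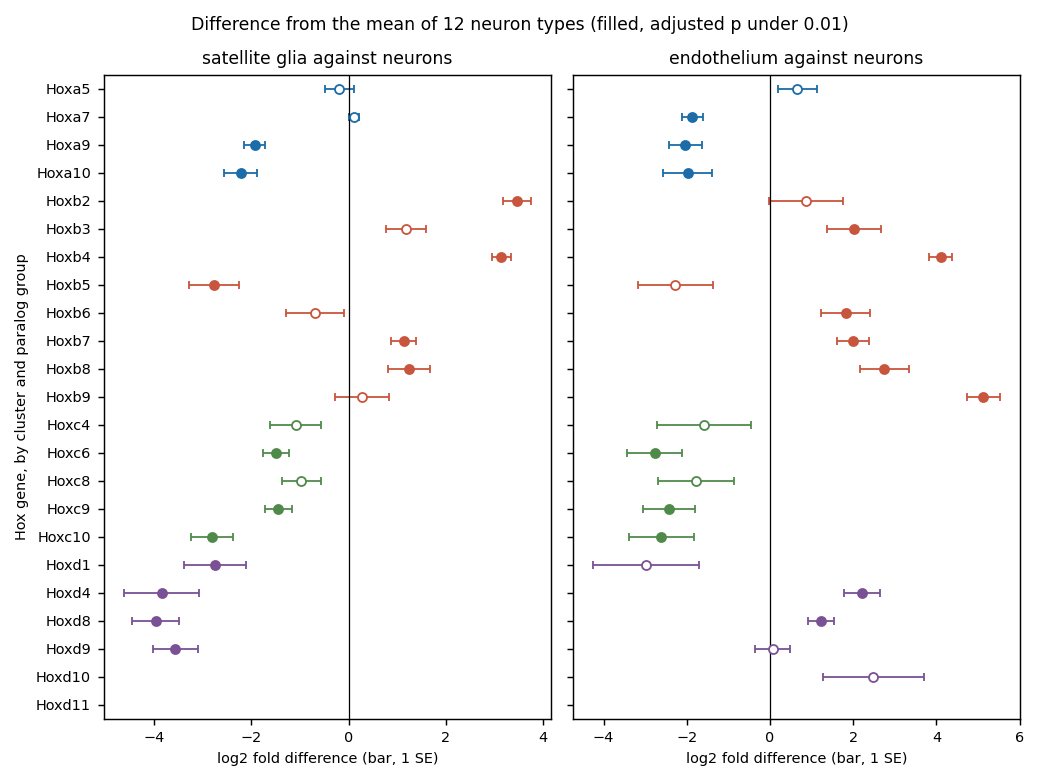
Log2 difference of the tested Hox genes in satellite glia (left) and endothelium (right) from the mean of the 12 neuron types, with bars of 1 SE and filled points for an adjusted p under 0.01. Hoxb4 stands at 3.15 in glia and 4.11 in the endothelium, Hoxd8 at −3.97 in glia and 1.22 in the endothelium, and Hoxd10 and Hoxd11 in glia and Hoxd11 in the endothelium are not drawn.

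The third comparison set the endothelium against the neuron types. Endothelial cells carried a HoxB-led set with some HoxD genes and little HoxA or HoxC. Of the 23 tested members 8 were higher, where 24.1% of all genes were, and 6 were lower, where 31.5% of all genes were. The median log2 difference was 0.07 over the members, also with Hoxd11 at its bound, and −0.60 over all genes tested. Neuron markers stood at 0.926 to 7.18% of their neuron level. The glial list stood at 4920.0 CPM in the endothelium, with a range of 1527 to 15069 over libraries, and its part in the results was not tested. Glul was higher in the endothelium than in glia, at 1076 against 538 CPM. The others were lower: Apoe at 3520 against 78389 CPM, Sox10 at 19.1 against 123 CPM and Kcnj10 at 7.44 against 207 CPM. Fabp7 was at 296 against 8009 CPM, with an endothelial range of 0 to 1515 CPM and its highest value in library 5. The fibroblast list was at 54.2 CPM. The macrophage list was at 71.2 CPM, most of it Lyz2 at 59.5 CPM (range 0 to 119 over libraries), against 0.356 CPM in neurons. Cd68 was at 6.38 CPM, Aif1 at 5.31 CPM with all of it in library 5, and Csf1r, C1qa and Cx3cr1 at 0. The part of the macrophage list in the results was not tested.

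Hoxb9 was at 68.6, 99.2, 103, 74.5 and 73.9 CPM in the endothelium and at 2.67 ± 0.408 CPM in glia. It overlapped NF_Pvalb, and every endothelial library was above all libraries of each of the other 11 neuron types (log2 5.12 ± 0.39, adjusted p 3.44e-19). Hoxb4 was at 68.6, 52.9, 66.5, 74.5 and 46.2 CPM (log2 4.11 ± 0.27, adjusted p 2.78e-22), above every library of glia and of the neuron types. A Hoxb9 UMI was found in 85.7% of endothelial cells and a Hoxb4 UMI in 57.1%, against 4.42% and 32.9% of glia at a similar depth. Hoxd8 was at 17.2, 39.7, 33.2, 44.7 and 46.2 CPM (log2 1.22 ± 0.32, adjusted p 0.000583) and Hoxd4 at 51.5, 23.2, 11.1, 19.9 and 9.24 CPM (log2 2.21 ± 0.42, adjusted p 4.82e-06). The value of library 1 for Hoxd4 came from 3 cells.

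Hoxb7, at 28.3 ± 16.5 CPM, and Hoxb8, at 18.5 ± 19.5 CPM, also rose (log2 2.00 ± 0.38 and 2.75 ± 0.59, adjusted p 3.86e-06 and 4.3e-05), and so did Hoxb3 and Hoxb6. Endothelial UMIs were 28 for Hoxb7, 14 for Hoxb8, 6 for Hoxb3 and 12 for Hoxb6. Pooled levels of Hoxb7 and Hoxb8 were 331% and 222% of those in neurons. Single neuron types had higher means, 42.0 CPM of Hoxb7 in PEP3_Trpm8 and 52.6 CPM of Hoxb8 in NF_Calb1. The genes that fell were Hoxa7, Hoxa9, Hoxa10, Hoxc6, Hoxc9 and Hoxc10. They rested on 15, 9, 5, 2, 3 and 3 endothelial UMIs in this order. Hoxa7 was at 0, 13.2, 22.2, 9.93 and 27.7 CPM and fell by 1.86 (SE 0.25, adjusted p 1.04e-09). The highest of these libraries was above the lowest library of NP_Mrgpra3 and NP_Nts and under all libraries of the other neuron types.

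Several endothelial calls were lost when 1 library was left out. Hoxb3 lost its call without library 2 or 3 (adjusted p 0.0826 and 0.0527). Hoxb6 lost it without library 1, 2 or 4 (0.0352, 0.0125 and 0.0296). Hoxa10 lost it without library 2 or 5 (0.0237 and 0.0148), and Hoxc10 without library 2, 4 or 5 (0.0103, 0.0137 and 0.0153). The highest adjusted p over all alternatives was 0.0826 for Hoxb3, 0.115 for Hoxb6, 0.0237 for Hoxa10 and 0.0153 for Hoxc10, and the lowest were 0.00155, 0.000131, 0.000525 and 0.00142. A Hoxd10 UMI was found in 12 of 56 cells and a Hoxd11 UMI in 0 of 56, which allows a share of cells with a UMI of up to 5.36%.

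The number of Hox genes seen per cell was compared after each cell was thinned to 10000 UMIs, which left out no cell. Neurons had 3.13 ± 0.209 Hox genes per cell, endothelial cells 3.14 ± 0.540 and satellite glia 1.5 ± 0.0833. Among neuron types PEP3_Trpm8 was highest at 4.52 ± 0.325, and NP_Nts and NP_Mrgpra3 were lowest at 1.57 ± 0.131 and 1.62 ± 0.269, close to glia. Without thinning the means were 9.59 in neurons, 4.76 in endothelial cells and 2.48 in glia, and the highest number in 1 cell was 22.

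Levels were also set side by side between libraries. Each library is 1 mouse, so the differences between libraries carry no test. Averaged over the neuron types, Hoxd10 was at 5.67, 7.44, 0.711, 10.3 and 5.98 CPM and Hoxd11 at 4.16, 6.44, 0.615, 9.93 and 4.88 CPM in libraries 1 to 5. Library 3 stood under the others for both, and the mean of the other libraries was 7.35 ± 2.11 CPM for Hoxd10 and 6.35 ± 2.57 CPM for Hoxd11. Hoxd10 was listed at 0 in 7 of 12 neuron types of library 3 and was lowest or tied in 8. NF_Pvalb was among these 7 and was at 0 in every library. In library 1 Hoxd10 was also at 0 in NF2_Ntrk2.Necab2 and the PEP1 types. In library 2 it was at 0 in NF_Calb1 and NF2_Ntrk2.Necab2, and in library 4 in NF2_Ntrk2.Necab2.

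Hoxd9 and Hoxd8 also had their lowest mean in library 3, at 17.3 and 15.3 CPM against 23.2 ± 3.68 and 20.0 ± 2.69 CPM in the others, though library 1 was close to it. Hoxb9 was highest in library 1, at 27.1 CPM against 12.4 to 17.2 CPM in the others, and Hoxc10 was highest there too. The median UMIs per neuron of library 3, 63276, lay between those of the other libraries, 57409 to 82821. Library 3 had the largest part of cells with a mitochondrial share above 10%, 61 of 474. In libraries 1, 2, 4 and 5 these were 11 of 164, 31 of 539, 26 of 805 and 59 of 1370. The part of such cells in the differences between libraries was not tested.

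**Figure D4:**
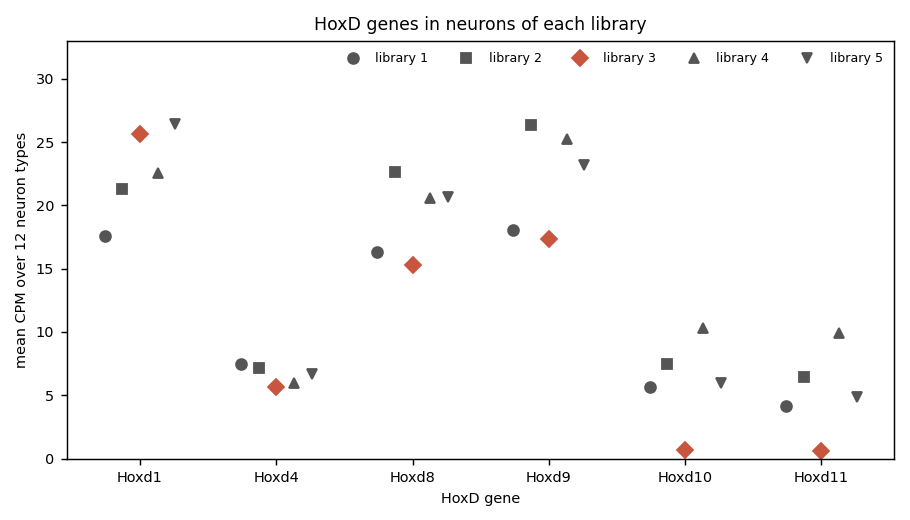
Mean CPM over the 12 neuron types of 6 HoxD genes, with 1 marker per library and library 3 in red. Library 3 is at 0.711 CPM for Hoxd10 and 0.615 CPM for Hoxd11, where the other libraries lie between 4.16 and 10.3 CPM.

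Hoxd10 and Hoxd11 were found in a small set of neurons, mostly the same ones. Of 3047 neurons 298 (9.78%) had a UMI of either gene, and 229 had both, which is 76.8% of those with either. The share of neurons with either was 11.3% (exact 95% interval 6.58 to 17.7), 7.66% (5.42 to 10.4), 1.59% (0.585 to 3.42), 15.4% (12.8 to 18.2) and 9.69% (8.16 to 11.4) in libraries 1 to 5. The interval of library 3 did not overlap those of the other libraries, and it covers counting error only. Cells with both genes held 94.0% of the neuronal Hoxd10 UMIs and 94.9% of the Hoxd11 UMIs. A total of 113 neurons (3.71%) with 5 or more Hoxd10 UMIs held 71.7% of them, and the highest count in 1 neuron was 20. The median depth was 61676 UMIs in neurons with either gene and 62834 in those with neither. In glia, 0 of 249 cells had a Hoxd10 UMI and 0.402% had a Hoxd11 UMI.

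For pairs of Hox genes in the same neuron, the number of neurons with both was set against the number given by the product of the single shares, within type and library and at 10000 UMIs per cell. The 21 genes with at least 1000 UMIs gave 210 pairs, described without a test since the counts are sparse and the pairs share cells and depth. The pair Hoxd10 and Hoxd11 was found in 61.5 neurons where 9.15 were given by the product, a ratio of 6.72 that was 6.83, 7.72, 35.2, 4.85 and 9.55 in libraries 1 to 5. The value of library 3 rested on few neurons, as it held 4 cells with both. Hoxd9 with Hoxd10 had a ratio of 2.01 and Hoxd9 with Hoxd11 of 1.95, and Hoxd9 lies next to Hoxd10 on the chromosome, where its promoter is shown above. Both pairs were above 1 in all libraries, apart from Hoxd9 with Hoxd10 in library 3, at 0.788.

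The next pair was Hoxb6 with Hoxb7, neighbours on chromosome 11, at 1.92, followed by Hoxc10 with Hoxd10 at 1.64. The lowest ratios were 0.511 for Hoxb8 with Hoxd11, from 2.43 neurons against 4.75, and 0.535 for Hoxb9 with Hoxd1, from 14 against 26.2. Over the 48 pairs within a cluster the median ratio was 1.17, and over the 162 pairs across clusters it was 1.02. The medians were 1.30 in HoxB, 1.19 in HoxC, 1.09 in HoxD and 1.04 in HoxA. In every library the median within clusters was above that across clusters. Pairs above 1 in all 5 libraries numbered 32 of 48 within clusters and 32 of 162 across.

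**Figure D5:**
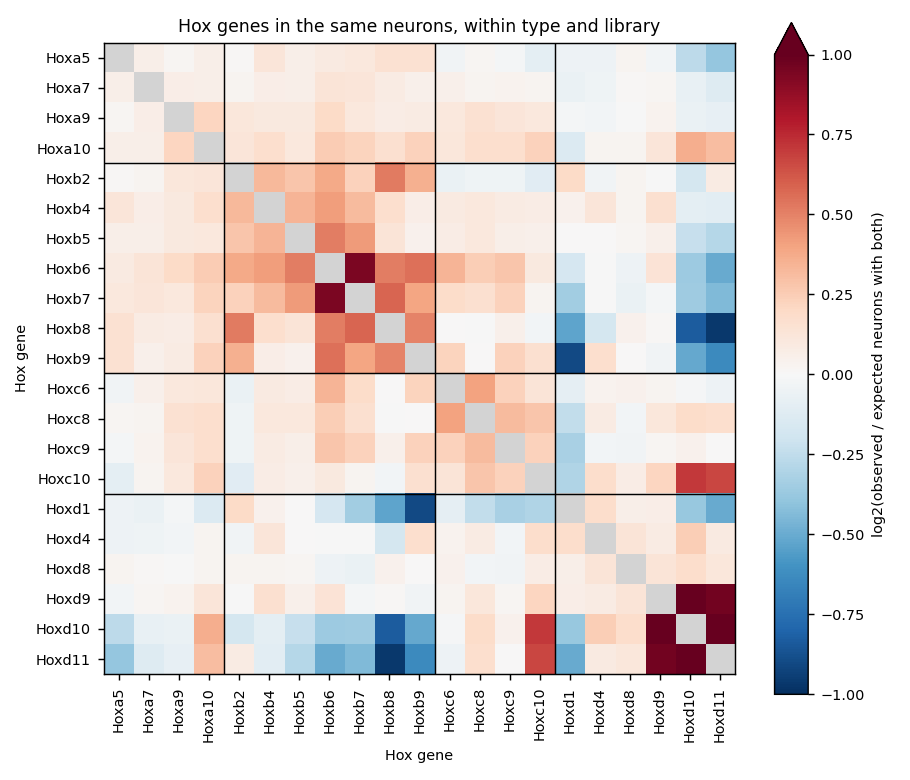
Log2 of the observed over the expected number of neurons with both genes of a pair, for 21 Hox genes ordered by cluster, with grey on the diagonal and black lines between clusters. The HoxB block is red throughout, Hoxd9, Hoxd10 and Hoxd11 form the darkest block, and Hoxb8 and Hoxb9 are blue against Hoxd1 and Hoxd11.

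Genes that act with or on Hox genes were described from lists of known members. HOX proteins bind DNA with the TALE cofactors of the PBX, MEIS and PKNOX families. Of 7 tested cofactors all differed among neuron types, and in glia 2 were higher and 4 were lower, with a median log2 difference of −1.05. Of all genes tested, 92.4% differed among neuron types, and 33.4% were higher and 33.2% lower in glia. Over the neuron types Meis3 was at 56.0 ± 3.35 CPM, Pbx2 at 24.4 ± 2.96 and Meis2 at 23.6 ± 1.96. The mean of Meis2 held a range from 0.101 ± 0.225 CPM in NP_Mrgpra3 to 126 ± 25.7 CPM in NF_Calb1, and it missed the threshold in glia (1.63 ± 1.6 CPM, log2 −1.04 ± 0.61, adjusted p 0.117). Pbx3 rose in glia (21.3 ± 5.81 CPM, log2 2.14 ± 0.20). Meis3 (6.29 ± 0.782 CPM, log2 −2.74 ± 0.20), Pbx2 (2.70 ± 0.829 CPM, −2.85 ± 0.31), Pbx4 (8.04 ± 4.52 CPM, −1.05 ± 0.24) and Pknox2 (5.73 ± 1.67 CPM, −1.11 ± 0.28) fell in glia, all with adjusted p of 0.000346 or less. In the endothelium 1 cofactor was higher and 3 were lower, where 24.1% and 31.5% of all genes were.

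Polycomb proteins keep Hox genes silent through methylation of histone H3 at lysine 27 and ubiquitination of H2A. Of 13 tested members 11 differed among neuron types, 5 were higher and 3 lower in glia, and 8 were higher and 1 lower in the endothelium. The shares over all genes were 92.4% among neuron types, 33.4% and 33.2% in glia, and 24.1% and 31.5% in the endothelium. The median log2 difference was 0.29 in glia and 1.14 in the endothelium. The most abundant in neurons were Ring1 (38.8 ± 3.36 CPM), Ezh1 (25.9 ± 2.71) and Suz12 (23.8 ± 1.55). The methyltransferases of the complex went opposite ways: Ezh2 was at 1.52 ± 0.14 CPM over neuron types and 20.0 ± 4.91 in glia (log2 4.24 ± 0.25, adjusted p 5.13e-25), and Ezh1 was at 4.09 ± 2.13 CPM in glia (log2 −2.14 ± 0.28, adjusted p 3.85e-10). Phc1 rose in glia (log2 3.41 ± 0.36) and Cbx7 fell (log2 −2.49 ± 0.43), while Ring1 and Suz12 missed the threshold there (adjusted p 0.166 and 0.016).

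Trithorax proteins and the H3K27 demethylases keep Hox genes active. Of 9 tested, 8 differed among neuron types, 2 were higher and 2 lower in glia, and 1 was higher and 2 lower in the endothelium. The same shares over all genes (92.4%, 33.4% and 33.2%, 24.1% and 31.5%) apply. The median log2 difference in glia was −0.23. The demethylase Kdm6b was at 23.8 ± 3.52 CPM over neuron types, 219 ± 19.8 in glia (range 201 to 250, log2 3.68 ± 0.11, adjusted p 1.14e-42) and 426 ± 104 in the endothelium. Kmt2a stood at 36.6 ± 2.47 CPM in neurons and 32.8 ± 5.82 in glia (adjusted p 0.245). Wdr5 rose in glia (log2 1.03 ± 0.25) and Ash2l fell (log2 −0.71 ± 0.17).

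Noncoding transcripts lie among the Hox genes, and reads of overlapping transcripts may be split between them. Of 16 listed, 10 were in the table and 5 were tested, of which all differed among neuron types and, with a median log2 difference of −2.10 in glia, 1 was higher and 3 were lower in glia, and 1 was higher and 2 were lower in the endothelium, beside the same shares over all genes. Haglr, which starts in HoxD, was at 14.5 ± 0.936 CPM over neuron types, highest in PEP1_Slc7a3.Sstr2 at 44.8 ± 6.32 CPM like Hoxd8 and Hoxd9, and at 0.158 ± 0.354 CPM in glia (log2 −4.49 ± 0.71). Hoxd3os1 (10.2 ± 1.33 CPM, log2 −4.87 ± 0.66) and Hoxaas2 (3.51 ± 0.369 CPM, log2 −2.10 ± 0.69) fell in glia, where Hotairm1 of the anterior end of HoxA rose, to 15.2 ± 6.01 CPM (log2 2.31 ± 0.25). Mira was at 21.4 ± 2.09 CPM over neuron types and missed the threshold in glia (adjusted p 0.563).

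Neighbours of the clusters on the chromosome gave 8 tested genes of 14 listed, and all 8 differed among neuron types, where 92.4% of all genes did. The median log2 difference in glia was −0.01. In glia 3 were higher (Hibadh with log2 1.60 ± 0.10, Skap2 with 1.68 ± 0.16 and Hnrnpa1 with 1.5 ± 0.16) and 2 were lower (Mtx2 with −0.70 ± 0.16 and Lnp with −2.44 ± 0.18). Of all genes, 33.4% were higher and 33.2% lower in glia. In the endothelium 2 were higher and 3 lower, where 24.1% and 31.5% of all genes were. Lnp and Mtx2 flank HoxD, and their levels over neuron types were 59.99 ± 2.91 and 107 ± 13.7 CPM. Cbx5, at 66.1 ± 4.52 CPM over neuron types, missed the threshold in glia (adjusted p 0.294).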

How the data were processed

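Droplet libraries of lumbar DRG cells from 5 mice were made by Chromium 3′ chemistry. The values are raw counts of UMIs per gene and cell, deposited by the authors, who aligned to mm10 and counted over UCSC gene models in Cell Ranger 2.0.0. The authors clustered the cells with Seurat 3.0.1 and deposited 1 type per cell, used here unchanged. The annotation spells 1 type NF_Ca1b1, written NF_Calb1 here. Over 37 mitochondrial rows, 188 of the 3352 deposited cells had a share above the 10% of the study's filter, which may have used another set of rows. No doublet caller was run here. A set of 4 rows without a gene name, 6.37e-05% of UMIs, was dropped. The members and lists were chosen with earlier results of these data known.

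Counts were summed per type and library and tested with edgeR 4.0.16 in R 4.3.3 (filterByExpr, TMM, quasi-likelihood, Benjamini-Hochberg over 11886 genes, adjusted p under 0.01). The p-values of contrasts between types measure the spread between libraries. A planned fit of differences between libraries has 1 mouse per level and takes the type sums as its replicates, so it is no test between mice, and its p-values are not given. The contrasts average log levels over 12 neuron types, and no fold was given where a group had 0 or 1 UMI. On simulated counts of 10486, 10472 and 10470 genes, 4-fold changes were recovered for 85% in glia, 86% in neuron types and 67% in the endothelium, and 2-fold changes for 69%, 68% and 24%. Unchanged genes had the same mean share in all types, with a spread set by the trend alone and no pairing by library. In the neuron types only Th was changed and the test of any difference was scored. These rates therefore do not give the power of the comparisons on the real counts. Types of 1 library come from the same mouse, so library pairs the sums, and a fit with library as a replicate block was among the alternatives. The others were DESeq2 1.42.0, all genes with no low-count filter, only sums with 10 or more cells, a threshold of 0.05, leaving out each library, 1 sum of all neurons, a mitochondrial limit of 10% and no TMM. The last of these, the endothelium against 1 sum of neurons, and co-detection without thinning or without each library were added after seeing the data. Exact intervals at 95% and the limit of 3 counts for a count of 0 cover counting error only.

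Values by library are given for the 10 members with the highest mean CPM over the neuron types, and the highest and lowest neuron type for each member called. Of the other lists, the 3 most abundant members and those with a call of at least 2-fold in glia are named, up to 6 a list. Some items are not reported here.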

Additional observations from a re-analysis of the deposited data

Results flagged for a closer look

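Of the 32 Hox genes tested for a library far from the other 4, 1 was found. The level of Hoxd1 over all neurons of a library was 23.9 CPM in library 3, and the next highest library was at 16.5 CPM. The gap was 0.778 of the whole range. Chance gives such a gap in about 1 of 20 groups. When neuron types were weighted equally, library 3 was at 25.7 CPM and library 5 at 26.4 CPM.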

How the results depend on the processing

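Leaving out each library in turn gave 3 to 5 Hox genes higher and 10 lower in glia, 6 to 7 higher and 4 to 6 lower in the endothelium, and 22 to 24 that differed among neuron types. The fit between libraries, which is no test between mice, marked 6 of 23 members with all libraries, where 27.4% of all genes were marked, 0 without library 3, and 0 to 6 over the libraries left out. The replicate block gave 5 and 10 in glia, 8 and 6 in the endothelium and 23 among neuron types. It gave 108 and 68 pairs of gene and type, where the reported fit gave 101 and 59. Single calls were compared in glia, in the endothelium, among neuron types, and in the highest and lowest type of each gene. Of these calls the replicate block changed only that of Hoxb3 in glia. With DESeq2, 3 were higher and 11 lower in glia. Against 1 sum of all neurons 5 Hox genes were higher in the endothelium, and 1 noncoding transcript was called in glia. At an adjusted p under 0.05, 5 Trithorax members were called in the endothelium. Noncoding transcripts called in the endothelium were 1 with DESeq2 and 1 to 3 without each library, and 9 differed among neuron types with no low-count filter. Directions turned for 5 genes, none past the threshold in the reported fit. In glia, Hoxa7 was at −0.23 against 1 sum and −0.18 without TMM, and Hoxb9 at −1.69 (adjusted p 0.00433) and −0.0378. In the endothelium, Hoxb2 was at −0.16 against 1 sum, Hoxa5 at −0.14 to 0.98 without each library, and Hoxd9 at −0.0418 with no filter, −0.0143 with at least 10 cells, −0.0418 without TMM and −0.21 to 0.33 without each library. Hox genes per cell at 5000 UMIs were 1.77 in neurons, 0.809 in glia and 1.73 in the endothelium, and without thinning 9.59, 2.48 and 4.76. Without TMM the median of all genes moved from −0.11 to −0.42 in glia and from −0.60 to −0.71 in the endothelium. The causes of these changes were not tested. The endothelium held 56 cells, and genes at 0 UMIs have a limit and no fold.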
